A study of Mus musculus with 3 samples.

Results

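The DNA replication and S phase genes are 42 genes, chosen by name, that act when a cell commits to copying its DNA and while it does so. They were 42 of the 27998 genes in the matrices, all 42 were detected in each library, and all 42 passed the filter on low counts. The cells were CD133+ cells sorted from the bone marrow of C57BL/6 mice, with 3 mice pooled in each of 3 libraries made with the 10x Chromium 3′ kit. The young and Ctrl libraries carried a labelled age of 3 months, and the old library one of 27 months, for which the design text gives 18.5 months. The labels give no genotype or treatment and do not say how Ctrl differs from young. Each group was 1 library, so age, mice, sort and library cannot be told apart, and differences between libraries were described without a test. After filtering, 6614 young, 9594 old and 9702 Ctrl cells were kept, with medians of 10374.5, 12701.5 and 9588.5 unique molecular identifiers (UMIs, 1 for each captured mRNA molecule) per cell. Levels are given as CPM, the UMIs of 1 gene in every 1000000 UMIs that the cells in question hold. Although the series title calls the cells endothelial-like, none of 5 endothelial markers reached 10 CPM in any library, Tek was at 0 UMIs in all 3 and Cdh5 at 0 in old. All 7 neutrophil precursor markers did so, among them Camp at 57730 CPM in young, 37209 in old and 52816 in Ctrl. Between 120 and 161 cell barcodes were shared by a pair of libraries, at most 1.52% of the smaller one.

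As background, a cell prepares to copy its DNA in G1, when Cdc6 and Cdt1 help load the ring of Mcm2 to Mcm7 at origins. E2F transcription factors switch on most of the genes needed, and cyclin E helps fire the origins. In S phase, Cdc45 and the GINS complex turn the ring into an active helicase, polymerases copy the strands on the sliding clamp Pcna, and Rrm1, Rrm2, Tyms and Dut supply and guard the nucleotides. In the neutrophil line the early precursors divide, and the cells leave the cycle for good as they mature.

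Because E2F factors are known to control many of these genes, the promoters of the list were read for E2F words before the levels are given. The words searched were TTCCCGC along with TTCGCGC along with TTGCCGC along with TTGGCGC on both strands, with overlapping matches counted apart. RefSeq windows (GRCm38.p6, 250 bases before to 50 after the start, 1 window per gene) were found for 33 of the 42 genes, and 20 of these 33 (60.6%) held at least 1 word. Among all 27025 promoters the share was 9.69%. It was 51.5% in 33 promoters of 40 other replication genes and 18.5% in 27 promoters of 30 mitosis and G2/M genes. At least 2 matches were found in 27.3% of the windows of the list and in 1.22% of all windows. The CCAAT box was in 57.6% of the windows of the list, 81.5% of those of mitosis genes and 37.9% of all. The words TTTGAA along with TTCGAA, which resemble the CHR element of mitosis genes, were in 18.2%, 77.8% and 19.4%. The windows of the list also had a higher median GC content (59.3%) than all windows (52.7%), whose part in these shares was not tested. A match is a description of letters and not a shown binding site.

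The 250 bases before the start are shown for 5 genes on which the results below turn, in lower case with the E2F words in capitals. Mcm6, a subunit of the helicase ring, was the gene with the most matches in its window. Hells, a chromatin remodeller, and Ung, which removes uracil from DNA, fell furthest along the bands. Rrm2 had the most UMIs of the list, and Cdca7 differed most between young and old. Mcm6, Hells and Ung were chosen after their values were seen. The windows are chr1:128359706-128359955 (minus strand) for Mcm6, chr19:38930740-38930989 (plus) for Hells, chr5:114130185-114130434 (plus) for Ung, chr12:24708004-24708253 (plus) for Rrm2 and chr2:72475969-72476218 (plus) for Cdca7.
Mcm6: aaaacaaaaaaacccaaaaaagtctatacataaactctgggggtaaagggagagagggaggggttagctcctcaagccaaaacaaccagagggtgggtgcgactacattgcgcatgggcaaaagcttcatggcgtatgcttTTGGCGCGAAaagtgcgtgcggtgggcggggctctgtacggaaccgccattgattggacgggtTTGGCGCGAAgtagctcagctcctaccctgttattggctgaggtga
Hells: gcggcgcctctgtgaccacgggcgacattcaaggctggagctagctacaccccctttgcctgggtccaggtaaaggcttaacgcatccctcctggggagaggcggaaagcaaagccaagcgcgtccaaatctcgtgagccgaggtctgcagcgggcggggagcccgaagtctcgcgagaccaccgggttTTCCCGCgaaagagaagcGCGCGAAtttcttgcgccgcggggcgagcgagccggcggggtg
Ung: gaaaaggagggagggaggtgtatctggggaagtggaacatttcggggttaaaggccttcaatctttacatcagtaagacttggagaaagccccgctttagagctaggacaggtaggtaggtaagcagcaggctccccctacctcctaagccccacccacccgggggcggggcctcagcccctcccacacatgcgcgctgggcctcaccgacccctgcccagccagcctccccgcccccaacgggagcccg
Rrm2: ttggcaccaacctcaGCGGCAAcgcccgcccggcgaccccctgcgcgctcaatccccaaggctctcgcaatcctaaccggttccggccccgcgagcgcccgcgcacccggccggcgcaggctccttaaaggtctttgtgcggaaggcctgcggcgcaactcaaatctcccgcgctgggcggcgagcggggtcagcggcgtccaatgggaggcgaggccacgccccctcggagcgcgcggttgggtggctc
Cdca7: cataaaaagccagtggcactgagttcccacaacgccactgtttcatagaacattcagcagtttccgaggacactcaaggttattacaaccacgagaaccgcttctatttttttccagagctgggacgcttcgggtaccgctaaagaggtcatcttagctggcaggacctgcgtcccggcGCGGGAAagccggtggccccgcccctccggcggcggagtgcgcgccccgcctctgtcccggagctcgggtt
The Mcm6 stretch held 4 matches in 2 overlapping pairs, Hells 2, Rrm2 and Cdca7 1 each, and Ung none of these letters.

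To follow the list along the neutrophil line, cells were placed in 6 bands by their UMIs per 10000 of Mpo, an enzyme of the first granules, and of Retnlg and Mmp8, genes of late maturation. Band 1 had Mpo of at least 50, band 2 from 20 to 50 and band 3 from 5 to 20, each with Retnlg+Mmp8 under 10. Band 4 had Mpo under 5 and Retnlg+Mmp8 under 2, band 5 Mpo under 5 and Retnlg+Mmp8 from 2 to 10, and band 6 Retnlg+Mmp8 of at least 10 with Mpo under 20. No gene of the list was used. Elane, a protease of the first granules, went from 25793, 19272 and 23956 CPM in band 1 (young, old, Ctrl) to 1326, 832 and 1590.4 in band 6. Band 1 held 17.8% of young, 8.55% of old and 12.8% of Ctrl cells, and band 6 held 10.7%, 28.3% and 5.63%. Band 4 held 6.17%, 1.61% and 23.9%, and 57 young, 37 old and 17 Ctrl cells were in no band.

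By CPM, the summed level of the replication genes was lowest in the Retnlg and Mmp8 cells and highest in the Mpo-high cells of every library, with bands 1 and 2 close together. Their summed level was 4172, 4342 and 4141 CPM in band 1 of young, old and Ctrl. It was 4046, 4329 and 4008 in band 2, 3073, 3749 and 2856 in band 3, and 2569.8, 2759.8 and 2448 in band 4. It reached 2424, 2345 and 2206 in band 5 and 1359, 1079.7 and 1068 in band 6, so that band 1 was 3.07 times band 6 in young, 4.02 times in old and 3.88 times in Ctrl. The ranges of the 3 libraries did not overlap between band 1 and band 6. With the sums divided by TMM factors, which centre the bulk of genes, the lowest band was again band 6 in each library, at 1673, 1482 and 1349, but the highest was band 2 in young (3412, against 2912 in band 1), band 3 in old (3739 against 3278) and band 2 in Ctrl (3315 against 3052).

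**Figure D1:**
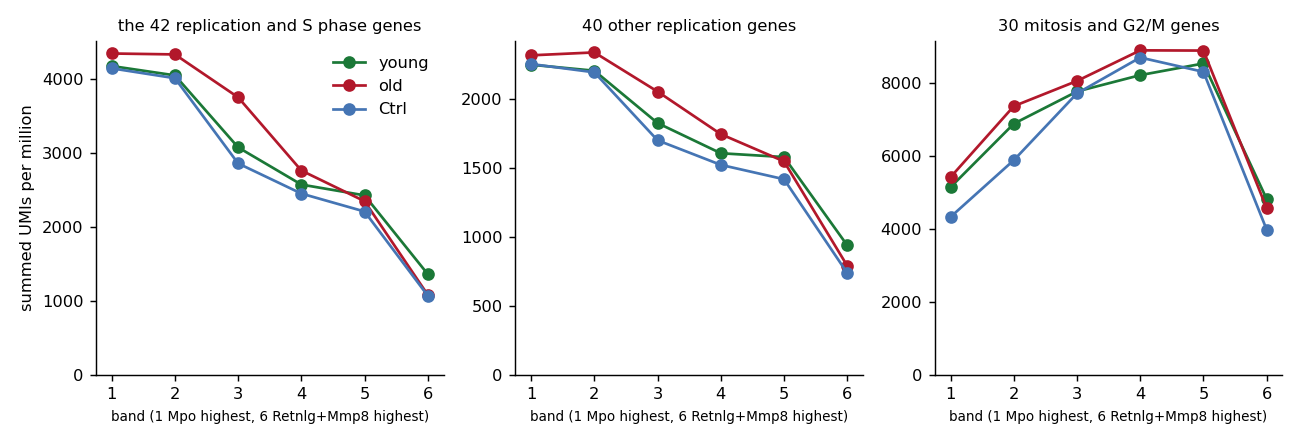
Summed CPM (vertical axes, starting at 0) in each band (horizontal axes) for 3 gene lists, with a line for each library. The replication lists fall from band 1 to band 6, while the mitosis genes rise to about bands 4 and 5 and then fall.

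Sums per library and band were tested with edgeR's quasi-likelihood test, with library as a block, so that the spread is that of the band effect over 3 libraries. Between band 6 and band 1, 41 of the 42 genes were lower (adjusted p under 0.05 over 10614 genes) and none was higher, beside 38.3% of all genes lower. The exception was E2f8, an E2F repressor (log2 fold change -0.01 ± 0.12 SE, adjusted p = 0.951). The median log2 fold change was -1.22 for the list and -0.02 for all genes. These folds use TMM factors. On total UMIs alone the median of all genes itself fell by 0.86, that of the list fell by 2.06, and all 42 genes were lower. With the cell filter first written, 40 were lower. Shares of all genes called are not given for these or the other edgeR alternatives below. Those counts of the list can therefore not be set against all genes. The UMIs that a few granule genes take moved with the bands: Camp alone took 16416, 9206 and 12830 CPM in band 1 and 61704, 37146 and 54353 in band 6 of young, old and Ctrl.

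At the limits used, the step with the most genes called was the last, where Retnlg and Mmp8 rise, although with all limits halved 18 fell at that step and 28 from band 2 to band 3. From band 5 to band 6, 40 of 42 genes fell, beside 19.2% of all genes, with a median of -0.84. Ung, at 1.27 to 1.49 CPM in band 6, and Rfc2, a clamp loader subunit, were the 2 that did not pass. From band 3 to band 4, 8 genes fell (2.73% of all genes), namely Ung, Hells, Mcm4, Cdc6, Mcm2, Rpa2, Gins2 and Mcm6. From band 2 to band 3, 11 fell (16.5% of all genes), among them Ung, Dut, Gins2, Mcm2, Hells, Mcm3 and Mcm6. From band 4 to band 5 none passed by edgeR or by DESeq2, and 2 of 42 had an unadjusted p under 0.05 by edgeR and 4 by DESeq2. By edgeR the adjusted p at this step was 0.999913 for each of the 42 genes. The share of all genes called there is not given, so this result cannot be read as particular to the list. Bands 4 and 5 were split by Retnlg+Mmp8 alone. In young, old and Ctrl, Retnlg stood at 120, 135 and 93.8 CPM in band 4, below its 318, 340 and 127 in band 1. Camp stood at 73236, 45722 and 65645 CPM in band 4 and at 73217, 46366 and 66125 in band 5. Band 5 need therefore not be a later stage than band 4. The count for band 3 to band 4 was 3 without young, 3 without old and 2 without Ctrl, and it was 0 with limits halved, 2 with no cells set aside, 16 without a filter on low counts, 29 with limits doubled, 29 with bands 4 and 5 joined and 25 on total UMIs alone. The count for band 2 to band 3 was 5 without young, 20 without old and 1 without Ctrl, and it was 28 with limits halved, 2 with limits doubled and 32 on total UMIs alone. Erythroid markers moved with band 4: the 7 markers summed to 3563, 390.3 and 568 CPM there in young, old and Ctrl, and to between 9.11 and 558 CPM in the other bands. Their part in the result was not tested.

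From band 1 to band 2 the list split. By edgeR, 12 genes rose (18.3% of all genes) and 1 fell (16.3% of all genes). Those that rose were the cyclin E genes Ccne1 and Ccne2, E2f8, Rrm2, Rrm1 and Tyms of nucleotide supply, Slbp, which binds histone mRNA, the polymerase subunits Pole, Pold3 and Prim1, the ligase Lig1 and Pcna. The gene that fell was Ung. With the cell filter first written 8 rose and 1 fell. On total UMIs alone 6 of the 12 still rose (Ccne1, E2f8, Rrm2, Slbp, Tyms and Rrm1), and 9 fell, among them Ung, Hells, Cdt1, Mcm3, Gins1, Gins2, Rpa2 and Fen1. The band with the highest level therefore depended on the scaling. By CPM, 32 genes in young, 28 in old and 27 in Ctrl were highest in band 1, beside 59.7 to 63.7% of all genes, and none was highest in bands 4 to 6. With TMM factors 10, 16 and 18 were highest in band 1, beside 32.5%, 35.0% and 38.5% of all genes, so that the share in young was below that of all genes. On this scale the count in band 2 was 21, 8 and 16, beside 10.7%, 7.04% and 7.63% of all genes. In band 3 it was 6, 15 and 5, beside 4.83%, 5.05% and 2.52%. In band 4 it was 5, 3 and 3, beside 12.7%, 11.6% and 12.5%. On neither scale was any gene of the list highest in band 5 or 6. With TMM factors, 8.18%, 6.24% and 7.49% of all genes were highest in band 5, and 31.15%, 35.04% and 31.35% in band 6. By CPM the shares of all genes were 4.09%, 8.22% and 6.10% in band 4 and 2.93%, 2.83% and 2.75% in band 5. In band 6 they were 15.46%, 14.49% and 18.02%.

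**Figure D2:**
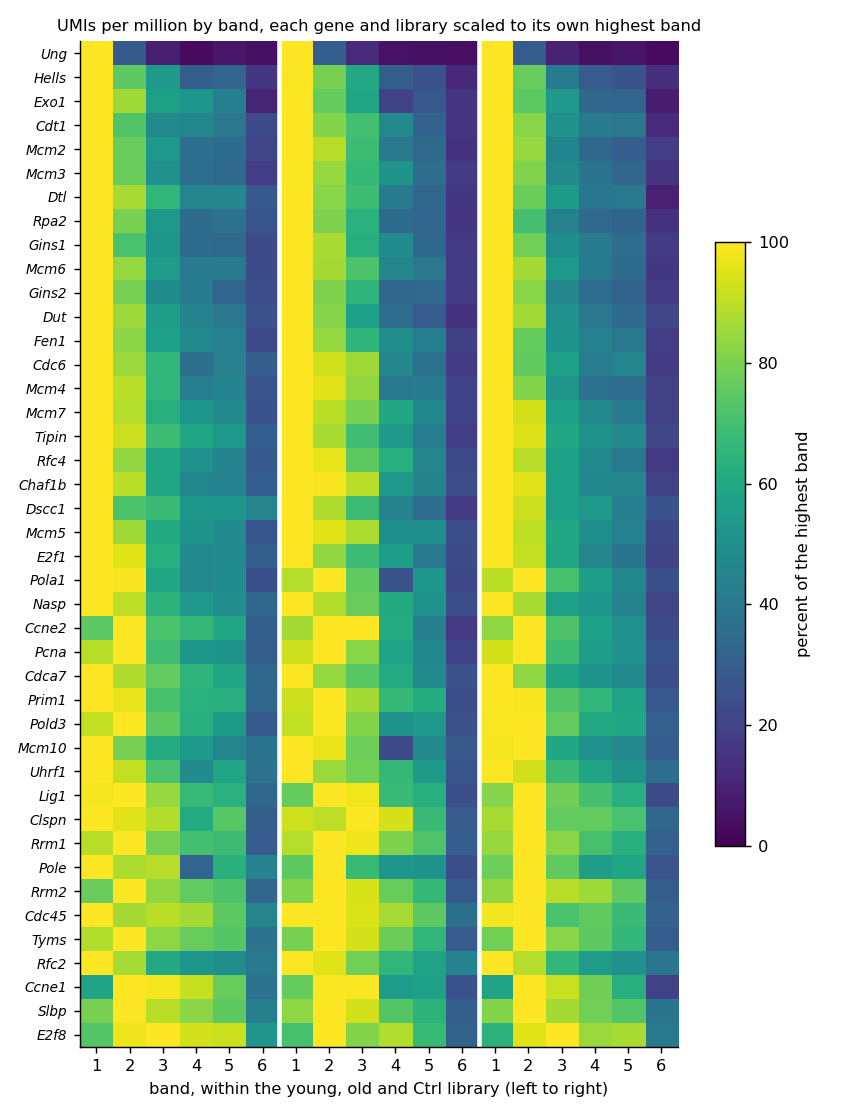
Level of each gene (rows, ordered by the log2 fold change between band 6 and band 1) in the 6 bands of the young, old and Ctrl library (columns), as percent of the gene's highest band in that library, by CPM. Ung drops steeply by band 2, the MCM genes fall gradually, and Rrm2, Slbp, Tyms and Ccne1 at the bottom have their highest band after band 1.

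Among the licensing genes, all 8 fell between band 1 and band 6. Mcm5 stood at 155, 130.3 and 133 CPM in band 1 of young, old and Ctrl and at 41.5, 31.4 and 28.6 in band 6 (log2 fold change -1.23 ± 0.10 SE, adjusted p = 5.82e-11). Mcm7 stood at 151, 132 and 121 CPM in band 1 and at 38.1, 26.5 and 23.5 in band 6 (-1.42 ± 0.10 SE, adjusted p = 5.06e-12). The bands did not overlap between libraries for either gene. Mcm7 overlaps 3 microRNA genes on its strand and Ap4m1 and Cops6 on the other (chr5:138164583-138172422, GRCm38). Whether reads of overlapping genes were counted apart by strand is not given in the sources used here. Other genes of the list, among them Fen1, Rfc4, Rfc2, Cdc45, Ccne2, Gins2 and Lig1, overlap annotated genes too. Cdt1, the loading factor that must be destroyed once origins have fired, fell by 1.78 on the log2 scale and Cdc6 by 1.49.

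Of the 4 genes that activate the helicase, Gins2, a GINS subunit, stood at 62.5, 69.4 and 64.5 CPM in band 1 and at 14.9, 12.3 and 11.4 in band 6 (-1.57 ± 0.11 SE, adjusted p = 1.42e-11). Cdc45 fell less, from 47.3, 46.0 and 48.6 CPM to 21.5, 17.0 and 15.6 (-0.57 ± 0.10 SE, adjusted p = 1.85e-05). Gins1 fell by 1.64 and Mcm10, a scaffold of the helicase, by 0.87 on the log2 scale. The difference between these folds was not tested.

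All 4 primase and polymerase genes were lower in band 6 than in band 1. Prim1, the primase subunit that makes the RNA primer, stood at 54.3, 53.5 and 53.3 CPM in band 1, 52.6, 58.2 and 52.8 in band 2 and 18.3, 13.9 and 14.6 in band 6 (-1.02 ± 0.10 SE between bands 6 and 1, adjusted p = 1.44e-09). Pold3 was highest in band 2 in all 3 libraries, at 37.0, 37.6 and 33.1 CPM, and lowest in band 6, at 10.4, 9.39 and 10.2. Pola1, the catalytic subunit that starts strands, stood at 18.2, 14.3 and 17.1 CPM in band 2, and Pole, that of the leading strand, at 8.01, 9.90 and 8.47. Both are at the low end of the list in UMIs, with 2836 and 1658 over the 3 libraries.

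Pcna, the sliding clamp, stood at 229, 215 and 203 CPM in band 1, 256, 232 and 217 in band 2 and 75.4, 46.6 and 55.0 in band 6 (-1.10 ± 0.09 SE between bands 6 and 1, adjusted p = 1.25e-10). Rfc2 had the smallest fold of its role, a difference that was not tested, and fell from 190.1, 153 and 149.8 CPM to 76.7, 68.4 and 58.8 (-0.44 ± 0.07 SE, adjusted p = 2.81e-06). Rfc4 fell by 1.33 and Dscc1 by 1.24 on the log2 scale.

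Among the genes of strand binding, flap removal, ligation and excision, Ung had the steepest profile of the list and ranked 64 of 10614 genes from the lowest fold. It was singled out after its values were seen. Its level was 32.7, 30.8 and 43.5 CPM in band 1, 9.31, 9.19 and 12.7 in band 2 and 1.49, 1.30 and 1.27 in band 6 (-3.76 ± 0.16 SE, adjusted p = 1.68e-15). Those in band 6 are sums of 7, 33 and 4 UMIs. Fen1, the flap nuclease, stood at 115, 125 and 120.1 CPM in band 1 and 25.3, 23.9 and 21.9 in band 6 (-1.53 ± 0.08 SE, adjusted p = 2.57e-14). Lig1, which seals the lagging strand, was highest in band 2 in each library, at 129, 147 and 118 CPM, and fell to 43.9, 35.7 and 27.3 in band 6. Exo1 fell by 1.93 and Rpa2, of the single-strand binding complex, by 1.65 on the log2 scale.

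In nucleotide supply, Dut, which destroys dUTP, followed the licensing genes. It stood at 341, 371 and 404 CPM in band 1 and 84.8, 54.7 and 86.5 in band 6 (-1.54 ± 0.10 SE, adjusted p = 3.04e-12). Rrm2, the regulated subunit of ribonucleotide reductase, rose first. It stood at 356, 528 and 357 CPM in band 1, 463, 651 and 426 in band 2, 333, 435 and 322 in band 5 and 153, 179 and 126 in band 6. The rise from band 1 to band 2 was 0.51 ± 0.07 SE (adjusted p = 4.53e-06), and the old library lay above both others in every band. Tyms, which makes dTMP, was also highest in band 2, at 185, 188 and 179 CPM, as was the large reductase subunit Rrm1, at 117, 115 and 105.

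Of the chromatin genes, Slbp was highest in band 2, at 382, 403 and 365 CPM, and kept 165, 122 and 142 in band 6 (-0.33 ± 0.08 SE between bands 6 and 1, adjusted p = 0.000805). Hells fell from 97.1, 96.6 and 114 CPM to 15.8, 10.6 and 15.3 (-2.16 ± 0.13 SE, adjusted p = 3.00e-13). Cdca7, a partner of Hells, fell from 157, 105 and 141 CPM to 52.2, 26.1 and 33.7 (-1.07 ± 0.09 SE, adjusted p = 2.84e-10). Uhrf1, which reads half-methylated DNA, fell by 0.84, the histone chaperone Nasp by 1.14 and the assembly factor Chaf1b by 1.24 on the log2 scale.

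Of the fork protection genes, Tipin stood at 169, 263 and 239.8 CPM in band 1 and 50.3, 49.0 and 51.5 in band 6 (-1.34 ± 0.10 SE, adjusted p = 1.03e-11). Clspn, a checkpoint mediator, had no common highest band (band 1 in young, 3 in old, 2 in Ctrl) and stood at 7.67, 8.87 and 8.27 CPM in band 6. Dtl, an adaptor for the destruction of Cdt1, fell by 1.66 on the log2 scale. Among the G1/S controls, E2f1 fell by 1.22, whereas Ccne1 rose from 14.4, 28.3 and 14.5 CPM in band 1 to 24.7, 36.9 and 24.8 in band 2 (0.84 ± 0.14 SE, adjusted p = 4.64e-05). Ccne2 rose from 78.6, 90.9 and 87.5 to 105, 105 and 105 CPM over the same step (0.50 ± 0.13 SE, adjusted p = 0.00495). E2f8 stood at 26.7, 29.5 and 23.7 CPM in band 1, 36.4, 33.9 and 37.0 in band 3 and 18.95, 12.98 and 14.94 in band 6.

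The other genes of the pathway moved in the same direction for the most part. Of 40 other replication genes, 31 were lower in band 6 than in band 1 (38.3% of all genes) and 4 were higher, with a median of -0.94. Of the 3 with most UMIs, Rpa3, a single-strand binding subunit, fell by 1.10 ± 0.09 SE and Gmnn, the inhibitor of Cdt1, by 0.72 ± 0.09, while Asf1b, a histone chaperone, had a log2 fold change of 0.10 ± 0.08 (adjusted p = 0.238). The mitosis and G2/M genes took another course. From band 1 to band 2, 29 of 30 rose (18.3% of all genes), and 29 of 30 rose again from band 2 to band 3, although on total UMIs alone 27 and 8 did. The shares of all genes higher from band 2 to band 3, and higher in band 6 than in band 1, are not given. Counts of genes that rose there can therefore not be set against all genes. All 30 mitosis genes then fell from band 5 to band 6 (19.2% of all genes), with a median of -1.01. Hmgb2, a chromatin protein and the one of them with most UMIs, stood at 1970.2, 2059 and 1553 CPM in band 1 and at 3864, 3885 and 3719.9 in band 5. Ube2s followed in UMIs, at 259, 449.5 and 493 CPM in band 1 and 356, 532 and 689.5 in band 5. Cks2 came next and went the other way by CPM, from 579, 521 and 478 in band 1 to 520, 462 and 444 in band 5. Between bands 6 and 1 its log2 fold change was -0.17 ± 0.06 SE (adjusted p = 0.0250 by edgeR). On total UMIs alone, 25 of the 30 mitosis genes were lower in band 6 than in band 1 and 5 higher, against 2 lower and 17 higher with TMM factors.

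To see how many cells carried the programme, every cell was thinned to 3000 UMIs and counted when at least 5 of the 42 genes had a UMI. At this depth 59.4% of young cells (exact 95% interval 58.2 to 60.6%), 51.8% of old (50.8 to 52.8%) and 58.2% of Ctrl cells (57.2 to 59.1%) passed. The intervals are Clopper-Pearson and cover counting error only. The order of old and young turned with bands weighted equally (61.2% in young, 65.3% in old) and with the cell filter first written (56.7% and 58.0%). In band 1 the shares were 92.6%, 95.4% and 93.2%, with a median of 10, 9 and 9 genes per cell. In band 2 they were 89.4%, 95.2% and 90.1%, and in band 3 63.6%, 79.3% and 59.9%. They were 54.7%, 58.4% and 52.7% in band 4 and 49.96%, 50.5% and 43.6% in band 5. In band 6 they fell to 17.2%, 13.1% and 11.9%, with a median of 2 genes. A lower sum in a band can come from fewer cells in S phase or from less RNA of these genes per cell, and so can a lower share of cells with several of the genes at equal depth, so these cannot be told apart here. Without thinning, 99.9%, 99.8% and 99.7% of cells in band 1 and 34.3%, 49.3% and 25.6% in band 6 passed, at median depths of 12275, 15077.5 and 12814 UMIs against 5375, 8895.5 and 4846.5. The share that free RNA alone would give was not measured.

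**Figure D3:**
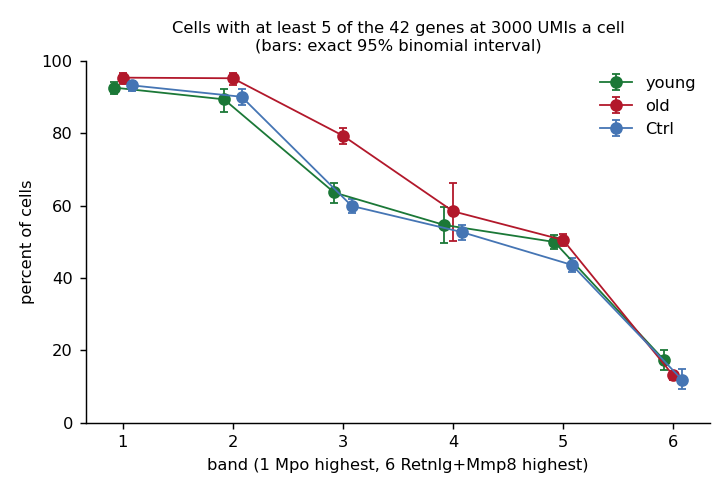
Percent of cells (vertical axis, 0 to 100) with at least 5 of the 42 genes after thinning to 3000 UMIs, by band (horizontal axis) and library, with exact 95% binomial intervals. All 3 libraries lie above 89% in bands 1 and 2 and below 18% in band 6, and old lies above the others in band 3.

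The genes tended to be found in the same cells. Taking 1 gene at a time, its share was compared between cells with at least 5 of the other 41 and cells with fewer than 2 of them, all at 3000 UMIs. The ratio had a median of 5.56 in young, 5.57 in old and 5.57 in Ctrl over the genes, and every gene had a ratio above 1 in every library. Mcm3 was found in 25.2%, 24.2% and 24.1% of the former cells and in 3.23%, 3.36% and 3.46% of the latter. Rrm2 was less selective, at 67.6%, 78.9% and 68.8% against 17.5%, 27.5% and 25.1%. These ratios mix cells of all bands, so they describe the bands as well as the cycle. They were not taken for genes outside the list, so the share of all genes with a ratio above 1 is not known.

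Cells were then split by whether they also carried at least 5 of the 30 mitosis genes at the same depth. In band 1, 74.9% of young, 87.6% of old and 75.7% of Ctrl cells carried both lists, and 17.7%, 7.80% and 17.5% the replication genes alone. Cells with the mitosis genes alone made up 6.96%, 4.27% and 6.11% of band 1 and 37.8%, 36.8% and 39.5% of band 5. In band 6, 57.6%, 57.9% and 65.9% of cells carried neither, and 25.1%, 29.0% and 22.2% the mitosis genes alone. Cells with the mitosis genes alone held a median of 7, 7 and 6 mitosis genes in band 6 of young, old and Ctrl. In band 5 the median was 12 in each library. Cells with neither in band 6 still held a median of 3 mitosis genes. Hmgb2 by itself stood at 2490, 2315 and 2085 CPM in band 6. The limit of 5 genes need therefore not be equally strict for both lists, which was not tested. Across libraries the order of the classes within band 6 was the same (neither, mitosis alone, both, replication alone).

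**Figure D4:**
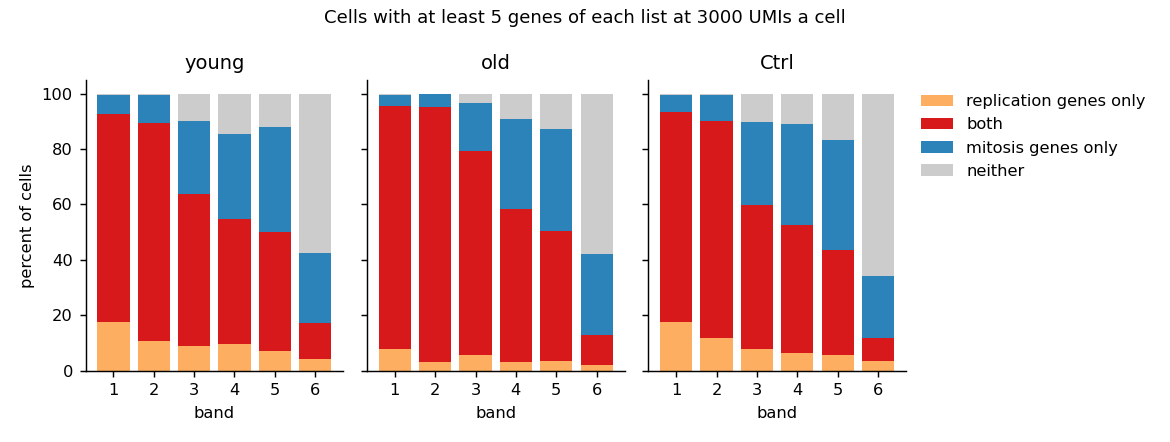
Percent of cells (vertical axis) in each band (horizontal axis) that carried at least 5 replication genes only, at least 5 mitosis genes only, both or neither at 3000 UMIs a cell, for the young, old and Ctrl library. Cells with both lists make up most of bands 1 and 2, and cells with neither most of band 6. The limit of 5 genes need not be equally strict for both lists.

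Over all kept cells the list in sum differed little between libraries, while single bands differed more, as given below. Its summed level was 2962 CPM in young, 2711 in old and 2863 in Ctrl. The log2 ratio of old over young was -0.13 (exact conditional 95% interval -0.14 to -0.12), of Ctrl over young -0.05 (-0.06 to -0.04) and of old over Ctrl -0.08 (-0.09 to -0.07), intervals that cover counting error only. With each band weighted equally, old over young was 0.08, Ctrl over young -0.08 and old over Ctrl 0.15, so that the direction of both ratios with old turned. It also turned with the cell filter first written, which set aside more cells (0.04 for old over young, 0.07 for old over Ctrl). The share of cells in band 6 was 28.3% in old, 10.7% in young and 5.63% in Ctrl. It was highest in old, where the sum over all cells was lowest. Between Ctrl and young it did not go this way, since Ctrl had the lower share and also the lower sum. Whether this share moved the ratios was not tested.

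Within bands, old over young was 0.06 in band 1, 0.10 in band 2, 0.29 in band 3, 0.10 in band 4, -0.05 in band 5 and -0.33 in band 6. In band 3, 33 of 38 genes with at least 10 CPM were higher in old than in young, beside 60.2% of all genes, with a median of 0.26 beside 0.09 for all genes. In band 6, 30 of 32 were lower, beside 56.5% of all genes, with a median of -0.40 beside -0.07. The same band gave a median of -0.38 for Ctrl over young, with 30 of 32 lower, beside -0.05 and 57.1% lower for all genes. Since both ratios share the young library, they are not independent. Old and Ctrl differed little in band 6 by CPM (0.02, interval -0.04 to 0.07). Divided by TMM factors, the band 6 sums were 1673 in young, 1482 in old and 1349 in Ctrl, so old lay between the others. The old library was the deeper, with a median of 14247 UMIs per cell in band 3 against 10299 in young and 9166 in Ctrl. Band 3 was not matched in granule genes either, with Elane at 5129 CPM in old and 4446 in young and Ltf at 3204 and 4777. Basophil and mast markers summed to 195 CPM in band 3 of old, 49.6 in young and 17.9 in Ctrl. Erythroid markers (21.5 CPM in old, 558 in young) and dendritic markers (16.8 and 142) went the other way there. The part of such cells in the ratios was not tested.

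By gene, 38 of the 42 had at least 10 CPM in old or young. Of these, 32 were lower in old, beside 3341 of 5585 genes, with a median log2 ratio of -0.20 beside -0.08. With bands weighted equally, 19 of 38 were lower, beside 2571 of 5627 genes. Over all kept cells, none of the 38 was more than 1.5 times higher in old (5.09% of 5585 genes were) and 1 was more than 1.5 times lower (9.9% of all genes). In UMIs per cell 1 of 38 was higher, beside 12.05% of all genes. With no cells set aside 5 of 40 were lower, beside 14.7% of all genes. With trimming at the 10th and 90th percentile 2 of 38 were lower, beside 9.85%. At the settings used, the gene was Cdca7, at 59.3 CPM in old, 112 in young and 87.7 in Ctrl (log2 ratio of old over young -0.91, interval -0.96 to -0.87). It was lower in old than in young in each of the 6 bands, with log2 ratios of -0.572 in band 1 and -1.001 in band 6, and lower in Ctrl than in young as well (-0.35, interval -0.40 to -0.31). Ung was also past 1.5 times lower in old than in young (-0.75, interval -0.91 to -0.59) but was under 10 CPM in both, at 5.503 and 9.246, and so was not counted, and with bands weighted equally its ratio was -0.05. Dtl followed at 16.8 CPM in old and 25.2 in young (-0.58, interval -0.68 to -0.49), just inside the limit of 1.5 times, and Pola1 at 8.21 and 11.7 (-0.51, interval -0.64 to -0.37). Both were lower in old in all 6 bands. For Pola1 the 2 libraries were almost level in band 3, at 10.78 and 10.80 CPM.

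The highest ratios of old over young were those of Rrm2, Ccne1 and Tipin. Rrm2 stood at 440.5 CPM in old, 345 in young and 355 in Ctrl (0.35, interval 0.33 to 0.38 over young, and 0.31, interval 0.29 to 0.33 over Ctrl), and was higher in old than in either other library in all 6 bands. Over all kept cells it carried 13.8% of the UMIs of the list. Ccne1 stood at 23.5 CPM in old, 18.9 in young and 18.6 in Ctrl, with its widest ratio of old over young in band 1 (0.97) and ratios of -0.15 in band 4 and -0.02 in band 6. Tipin, at 137 CPM in old and 114 in young, was higher still in Ctrl, at 151 (Ctrl over young 0.41, interval 0.37 to 0.45, above 0 in all 6 bands), and was lower in old than in Ctrl over all cells (-0.14, interval -0.18 to -0.11), though not with bands weighted equally (0.12). Dut was lower in old, at 159 CPM against 198 in young and 220.2 in Ctrl.

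**Figure D5:**
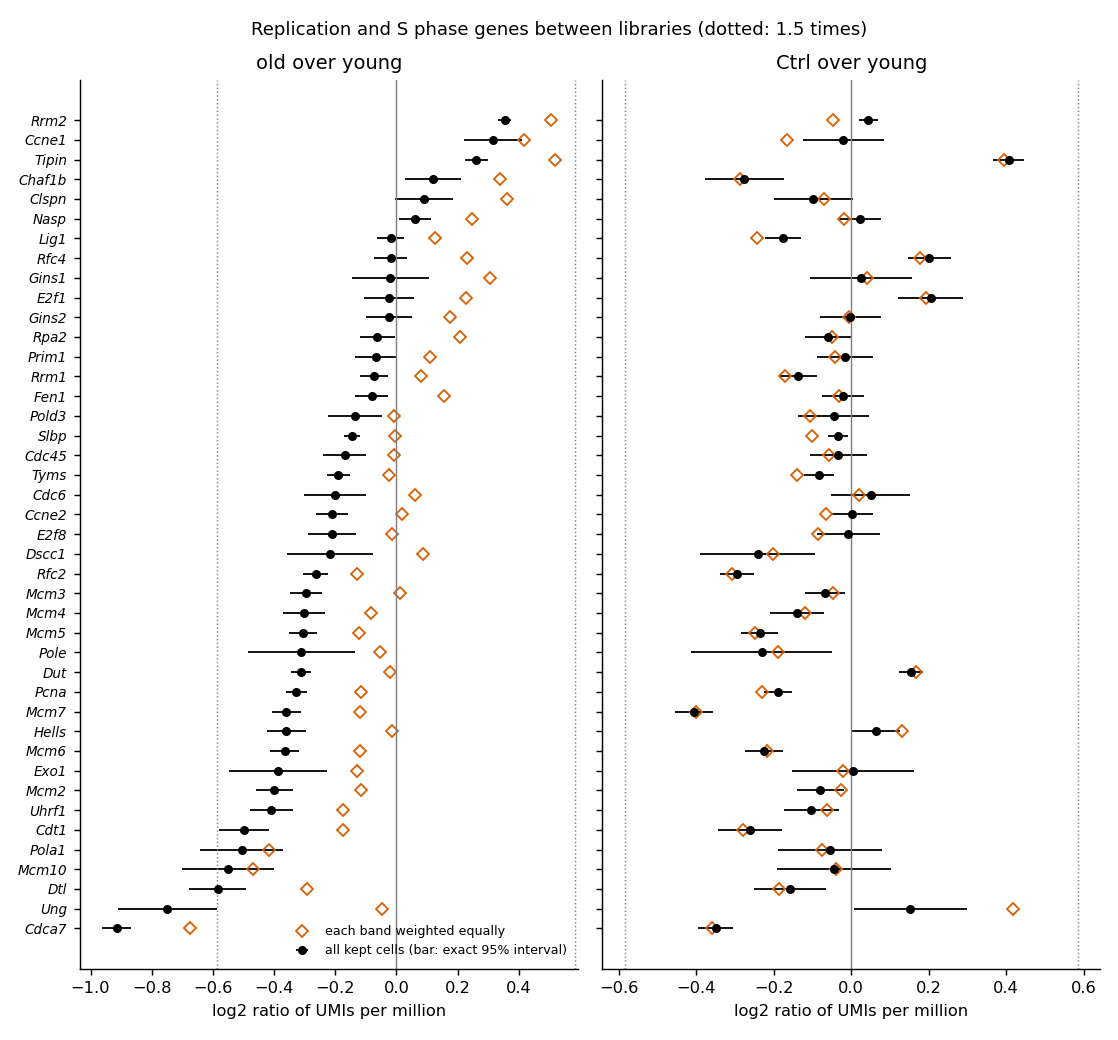
Log2 ratio of CPM (horizontal axes) of each gene (rows) for old over young and Ctrl over young, over all kept cells with exact 95% counting intervals (filled) and with each band weighted equally (open). Dotted lines mark 1.5 times. Cdca7 is lowest and Rrm2 highest for old over young, and most open symbols lie to the right of the filled ones in the left panel only.

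For Ctrl over young, none of 39 genes passed the limit upward (2.56% of all genes) or downward (3.6%). Mcm7 was lowest at 72.3 CPM in Ctrl and 95.8 in young (-0.40, interval -0.45 to -0.36). For old over Ctrl, none of 38 passed upward (5.4% of all genes) and 1 downward (8.79%). This was Ung, at 5.503 CPM in old and 10.3 in Ctrl (-0.90, interval -1.05 to -0.76), whose ratio was -0.50 within band 1, where most of its UMIs lie. That call was lost (0 lower) with bands weighted equally, in UMIs per cell, with trimming at the 10th and 90th percentile, with a minimum of 50 CPM and with the cell filter first written, while 1 was higher with equal weights and 3 in UMIs per cell.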

How the data were processed

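Gene expression was measured in 3 single-cell libraries (young, old, Ctrl). The authors made the deposited UMI counts per gene and cell with Cell Ranger 2.1.0, which aligned reads to mm10 with STAR according to the submitters' processing notes. The annotation release and any use of strand for overlapping genes are not given in the sources used here, and the counts were not normalized. No column of per-sample values went unused.

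Cells with at least 200 genes and at most 20% mitochondrial UMIs were kept within the 5th to 95th percentile of UMIs (young and old together, Ctrl alone). Genes of the list were held out of the variable genes (2000 genes, 20 components, 15 neighbours), and Leiden clusters (resolution 1) were set aside where 4 or more markers of a blood lineage other than the neutrophil line reached 10 CPM and stood 10 times above the remaining cells: 764 young cells (10.4%), 87 old cells (0.899%) and 78 Ctrl cells (0.798%). The rule as first written asked for 3 markers. It set aside 1377, 2401 and 694 cells, of which 613, 2314 and 616 were kept here. Of those kept, 576, 619 and 572 lay in band 1, which held 1179, 820 and 1244 cells. Their clusters passed 3 markers of eosinophils (young), of erythroid or basophil and mast cells (old) or of erythroid cells (Ctrl). The number of markers was raised after the clusters, but not the levels of the listed genes, were seen. Among kept cells, eosinophil markers summed to 166 CPM in young band 2, and basophil and mast markers to 195 CPM in old band 3. Results under 3 markers are given as an alternative. Doublets were not called, so cells of 2 types may remain.

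UMI counts summed per library and band (18 sums) were tested with edgeR 4.0.16 (R 4.3.3) by the quasi-likelihood test, with library as a block, TMM factors and its default filter on low counts. Values were adjusted by Benjamini-Hochberg over 10614 genes at 0.05, and the standard error was the absolute log2 fold change over the root of F. DESeq2 1.42.0 was an alternative. On simulated counts for band 6 against band 1 (10423 genes), 57 of 67 genes changed 1.5 times, 67 of 67 changed 2 times and 66 of 66 changed 4 times were recovered, and 12 of 10223 unchanged genes were called. The simulation gave all genes the same fixed spread and no band difference apart from the changed genes in band 6. In these data 38.3% of genes were lower in band 6, so the simulated rates need not hold here. The 3 sums of a band come from different libraries, and p-values measure their spread, which may be technical. Libraries were compared without a test, by ratios with 95% exact conditional binomial intervals, and by counting genes past 1.5 times, provided 1 of the pair of libraries held 10 CPM or more. Cells were thinned to 3000 UMIs without leaving any out. Intervals cover counting error only. Clustering used scanpy 1.11.5 with leidenalg 0.10.2, intervals scipy 1.17.1 and plots matplotlib 3.10.9, under Python 3.11.15.

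The list and all other lists were chosen with earlier results of these data known. Named were the 2 genes of each role with most UMIs, the 3 highest and 3 lowest ratios of old over young among genes with at least 10 CPM, and genes whose highest band by CPM was not band 1 in at least 2 libraries. Of the other replication and mitosis genes the 3 with most UMIs are named by the rule. Other genes named were chosen after their values were seen. Alternatives were scaling, filters, band limits, leaving out a library, depth and the number of genes per cell.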

Additional observations from a re-analysis of the deposited data

Results flagged for a closer look

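The summed level of the replication genes moved in opposite directions between old and young in 2 bands. By CPM, the log2 ratio of old over young was 0.287 in band 3 and -0.332 in band 6. Each ratio is 1 library against 1, and the difference between these ratios was not tested. Divided by TMM factors, the sums were 3739 in old and 3144 in young in band 3, and 1482 and 1673 in band 6. The median depth per cell was 14247 UMIs in old and 10299 in young in band 3, and 8895.5 and 5375 in band 6. Within band 3 the granule genes differed as well. Mpo stood at 1006 CPM in old and 869 in young, Elane at 5129 and 4446 and Ltf at 3204 and 4777. The cells of this band were thus not matched in these genes. Nor were they matched in markers of other lineages, with basophil and mast markers at 195 CPM in old and 49.6 in young. Erythroid markers went the other way, at 21.5 and 558 CPM. The part of depth and of such differences in the ratios was not tested.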

How the results depend on the processing

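Counts of listed genes by band step moved as follows, without the shares of all genes at the same settings. From band 1 to band 2, 9 fell on total UMIs alone, and 6 rose on total UMIs alone and 6 with band limits doubled. From band 2 to band 3, the number lower ran from 1 to 20 when 1 library was left out, and was 28 with limits halved, 2 with limits doubled and 32 on total UMIs alone. The number higher ran from 0 to 1 without 1 library, and was 8 with limits doubled and 1 without trimming. From band 3 to band 4, the number lower ran from 2 to 3 without 1 library, and was 16 without a filter on low counts, 0 with limits halved, 29 with limits doubled, 2 with no cells set aside, 29 with bands 4 and 5 joined and 25 on total UMIs alone. From band 5 to band 6, 18 were lower with limits halved. From band 1 to band 6, 1 was higher with limits halved and 1 with limits doubled. The cause of these changes was not tested, but fewer libraries and other cells per band are part of the construction of some.

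The log2 ratio of old over young was 0.0765 with bands weighted equally, 0.0716 so with bands 4 and 5 joined, 0.140 in UMIs per cell and 0.0391 with 3 markers, all with the direction reversed. It was -0.148 with cells thinned to 3000 UMIs, -0.205 without Rrm2, -0.157 with no cells set aside, -0.0779 without trimming and -0.102 with trimming at the 10th and 90th percentile. In the same order Ctrl over young was -0.0770, -0.0675, -0.112 and -0.0305, then -0.0587, -0.0618, -0.0761, -0.00140 and -0.0673. Old over Ctrl reversed to 0.154, 0.139, 0.253 and 0.0696, and was -0.0890 thinned, -0.143 without Rrm2 and -0.0350 with trimming at the 10th and 90th percentile.

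The share of cells with several genes was 76.9% (young), 69.1% (old) and 76.1% (Ctrl) for at least 3 genes, 37.7%, 32.2% and 36.0% for at least 8, 77.5%, 65.7% and 75.9% at 5000 UMIs and 56.7%, 58.0% and 55.8% with 3 markers. With bands 4 and 5 joined and equal weight it was 62.7%, 66.8% and 60.7%, and with bands weighted equally 61.2% (young) and 65.3% (old). Without trimming it was 57.2% (young) and 53.9% (old). The order of the libraries turned with 3 markers and with equal weights. Of genes past 1.5 times, old over young had 1 higher in UMIs per cell, 5 lower with no cells set aside and 2 lower with trimming at the 10th and 90th percentile. The shares of all genes were 12.05%, 14.7% and 9.85%. Old over Ctrl had 1 higher with equal weights, 2 with bands 4 and 5 also joined and 3 in UMIs per cell, and 0 lower in these 3, with a minimum of 50 CPM, with 3 markers and with trimming at the 10th and 90th percentile. Using 3 markers, joining bands 4 and 5 and total UMIs as the only scaling were chosen after seeing the data, as were UMIs per cell, the cell filter and the trimming for the counts past 1.5 times. No paired analysis was possible because each group is 1 library. Depth limits low levels such as those of Ung in band 6, which rest on 4 to 33 UMIs per library.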
